A study of Mus musculus with 12 samples.

Results

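The values described here come from mouse aggregates given a cocktail of factors and from day 7 aggregates used as their controls, 3 libraries in each group. They are 6 of the 12 libraries in the study. Its stated aim was to turn oral epithelium derived from mouse embryonic stem cells into salivary gland progenitors. All aggregates were grown from the embryonic stem cell line 129w2, seeded at 3000 cells per well (day 0). All received bone morphogenetic protein 4 (BMP4, 2 ng/ml) on day 3 and basic fibroblast growth factor (25 ng/ml) with retinoic acid (1 µM) on day 4. They were moved to a new plate on day 5. The controls were taken at day 7. What the cocktail contained, when it was added and when its aggregates were collected is not stated in these sources, so its effect and a difference in stage cannot be told apart. No genotype beyond the line is given, both groups come from this 1 line, and the sources used here do not say how many aggregates were pooled or whether the libraries came from separate cultures. P-values therefore reflect the spread among these 6 libraries alone, and that spread may be technical.

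The members are all 633 genes in the authors' deposited table for this experiment, taken by the identifier of the row (594 mouse gene identifiers and 39 identifiers of new transcripts). The authors chose these rows as changed: in the authors' deposited table no FDR is above 0.0099 and no absolute log2 fold change is below 1.002. Every difference between the groups below is therefore a description of chosen genes, and counts of higher and lower genes support nothing further. Genes outside the table were not analysed here, so the absence of a gene from it is no measurement of that gene. Since these are bulk libraries, fewer cells of a type and less RNA per cell cannot be told apart.

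Dorsal neural tissue is patterned by a roof plate that secretes WNT and BMP proteins. The transcription factors LMX1A and LMX1B act in the roof plate, and the progenitors beside it express homeobox and basic helix-loop-helix factors in ordered domains. Hox genes mark position along the trunk and hindbrain and respond to retinoic acid. Interferons act through STAT factors that bind the GAS and ISRE elements in promoters, and canonical WNT signals act through TCF/LEF factors.

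Promoter sequences are shown for 4 of the genes described next, picked to set windows with motif letters beside one without: Gm12185 and Epsti1, listed at 0 in every control, Batf3, and the roof plate ligand Wnt1. Each sequence runs from 250 bases before to 50 bases after the annotated start, 5′ to 3′ on the strand of the gene, from RefSeq (GRCm38.p6). For Gm12185 the RefSeq start lies inside its annotated span (48904656 to 48992226) and not at 48992226, where that minus-strand span begins. Capitals mark the letters of a motif searched on both strands: GAS (TTCNNNGAA), ISRE (GAAA, any 2 bases and GAAA again) or TCF/LEF (CTTTGNNC).
Gm12185, GAS and ISRE letters in capitals, chr11:48927133-48927432, minus strand: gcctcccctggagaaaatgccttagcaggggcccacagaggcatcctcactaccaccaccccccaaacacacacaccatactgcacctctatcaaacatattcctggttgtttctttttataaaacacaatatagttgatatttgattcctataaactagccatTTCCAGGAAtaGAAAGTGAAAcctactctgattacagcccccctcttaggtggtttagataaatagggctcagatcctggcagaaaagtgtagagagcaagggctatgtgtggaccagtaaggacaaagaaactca
Batf3, GAS letters in capitals, chr1:191098164-191098463, plus strand: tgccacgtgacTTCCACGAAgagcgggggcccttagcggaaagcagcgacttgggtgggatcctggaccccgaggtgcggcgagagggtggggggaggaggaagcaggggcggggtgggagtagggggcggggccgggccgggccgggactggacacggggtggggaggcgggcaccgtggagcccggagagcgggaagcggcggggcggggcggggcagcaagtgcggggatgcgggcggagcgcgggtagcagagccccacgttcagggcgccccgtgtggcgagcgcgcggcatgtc
Epsti1, none of the 3 motifs, chr14:77903989-77904288, plus strand: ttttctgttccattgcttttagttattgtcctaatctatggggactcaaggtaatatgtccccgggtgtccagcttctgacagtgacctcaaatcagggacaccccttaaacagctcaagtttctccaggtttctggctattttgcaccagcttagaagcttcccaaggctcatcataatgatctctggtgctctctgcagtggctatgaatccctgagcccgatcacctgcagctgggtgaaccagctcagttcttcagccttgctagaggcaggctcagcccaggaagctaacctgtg
Wnt1, TCF/LEF letters in capitals, chr15:98789607-98789906, plus strand: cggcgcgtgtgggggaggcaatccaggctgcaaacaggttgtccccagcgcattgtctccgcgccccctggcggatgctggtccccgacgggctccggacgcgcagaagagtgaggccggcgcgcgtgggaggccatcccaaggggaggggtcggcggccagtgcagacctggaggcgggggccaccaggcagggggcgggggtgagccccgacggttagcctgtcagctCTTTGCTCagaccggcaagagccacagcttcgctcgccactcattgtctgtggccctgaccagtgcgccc

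Motif letters were also counted for genes in the lists of largest, most abundant and smallest changes, with chromosome 18 left out. Of 31 such genes with a RefSeq promoter, 25 held none of the 3 motifs, 2 held GAS, 1 held ISRE and 5 held TCF/LEF letters. Nothing is read from these counts. In the Gm12185 promoter the GAS letters and the ISRE letters lay 2 bases apart, and the same window also held 1 TCF/LEF match. The GAS letters of Batf3 began 239 bases before its start, and the TCF/LEF letters of Wnt1 began 20 bases before its start. Over all 32851 promoters of the RefSeq table, 8.30% held the GAS letters, 3.44% the ISRE letters and 17.2% the TCF/LEF letters. Of the 594 named members, 426 had a promoter in that table, which is under 80%, so a comparison of motif shares between the members and all promoters is void. A match describes letters in a window and is not a binding site.

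Levels are given in FPKM (fragments per kilobase of transcript, divided by the size of the library), with libraries a, b and c of each group in the order of the columns; where values stand on both sides of "against", controls a, b and c come first and cocktail libraries a, b and c second. Differences between groups are those of mean log2(FPKM + 1), with the standard error (SE) from limma; adding 1 understates the change of genes below a few FPKM. The listed genes summed to 3165 to 3434 FPKM in the controls and to 11226 to 11714 FPKM with the cocktail. All 633 genes passed limma at a Benjamini-Hochberg adjusted p under 0.05 (100%), 363 higher with the cocktail (57.3%) and 270 lower (42.7%), which the authors' choice of rows had fixed. The largest adjusted p was 0.015, and the median difference over all 633 genes was 0.57. In FPKM the groups overlapped for 1 gene, the potassium channel Kcnk10, and did not overlap for 632 (99.8%). Scaling the libraries so that the median listed gene is level moved the differences by a median of -0.43. No gene changed direction under it, and 293 were then called higher and 270 lower. Among the genes described below, this scaling ended the call of Kcnk10 (limma adjusted p 0.097), of Foxp1 (adjusted p 0.86) and of other rises named where they occur.

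Of the 633 genes, 119 belong to a list of interferon targets, which summed to 404 to 434 FPKM in the controls and to 8037 to 8426 FPKM with the cocktail, and 118 of them were higher. Another 7 belong to the panel that the authors deposited separately, among them Bmp7, Tgfb1, Sema3c, Krt20 and Chrm3, which appear below on gene lists. The 468 named genes outside both, to which most of the description below is given, summed to 2660 to 2895 FPKM in the controls and to 3048 to 3177 FPKM with the cocktail. Of these, 216 were higher and 252 lower, with a median difference of -0.40. In the authors' deposited table the median log2 fold change was 1.55 among the higher and -1.51 among the lower, and 30 genes were above 8-fold upward and 17 downward.

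The 3 largest rises outside the interferon list were of predicted genes at or near 0 in the controls. Gm43302, within the guanylate-binding protein cluster on chromosome 5, was at 0, 0.026 and 0 FPKM in controls a, b and c, and the cocktail libraries held 34.2, 32.6 and 31.3 FPKM (limma difference 5.06, SE 0.09). Gm4951, on chromosome 18 beside the interferon-inducible GTPase gene Iigp1, was listed at 0 in every control and at 11.8, 9.92 and 11.8 FPKM with the cocktail (3.60, SE 0.11). Gm12185, in the cluster of interferon-inducible GTPase genes on chromosome 11 (48904656 to 48992226, GRCm38), was listed at 0 in every control and at 8.05, 8.48 and 8.12 FPKM with the cocktail (3.20, SE 0.10). The cocktail libraries lay close together for these 3 genes, and no control came near them. All 3 lie among similar genes of the same family, so reads may have been split among family members and the level of each single gene is uncertain. Epsti1, known as a gene induced by interferon in immune and epithelial cells, was also listed at 0 in every control and at 5.53, 7.04 and 4.68 FPKM with the cocktail (2.74, SE 0.14).

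Altogether 30 genes were listed at 0 in every control, and none was listed at 0 in every cocktail library. Of these 30, 16 were on the interferon list, 11 were other named genes and 3 were new transcripts. The other named genes included the serine protease inhibitor Serpina3f, at 2.79, 3.46 and 2.82 FPKM with the cocktail, and Trpc2, a cation channel of vomeronasal neurons, at 0.929, 1.016 and 1.16 FPKM. They also included Olfr56, an olfactory receptor gene that lies within the GTPase cluster on chromosome 11, at 2.285, 2.283 and 2.56 FPKM. Genes in that cluster overlap or lie next to each other, so the reads given to Olfr56 may belong to its neighbours.

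Genes with known roles in immunity were also among the 15 largest rises, and they are grouped here after their values were seen. Il12rb1, a subunit of the interleukin 12 and 23 receptors, was at 0.186, 0.2002 and 0.156 FPKM in the controls and at 5.57, 6.24 and 6.10 with the cocktail (limma difference 2.56, SE 0.10). C2, a complement component, was at 0.255, 0.262 and 0.135 FPKM against 7.21, 6.33 and 5.59 (2.59, SE 0.12). Zc3hav1, an antiviral RNA-binding protein, was at 0.901, 1.13 and 1.03 FPKM against 13.7, 14.5 and 15.04 (2.93, SE 0.09). In all 3 genes every cocktail library lay far above the highest control. Il18bp, a secreted inhibitor of interleukin 18, was at 1.37, 1.20 and 1.38 FPKM against 18.3, 22.3 and 18.1 (3.14, SE 0.11). Batf3, a transcription factor needed by a class of dendritic cells, was at 0.929, 0.533 and 0.952 FPKM against 7.42, 7.54 and 9.002 (2.32, SE 0.13). Il17rc, a subunit of the interleukin 17 receptor, was at 1.72, 1.47 and 1.502 FPKM against 11.2, 9.90 and 9.85 (2.14, SE 0.10). The groups did not overlap for any of them, nor for 632 of all 633 genes (99.8%). Il18 itself, the cytokine that Il18bp inhibits, named here for that relation, was at 0.858, 0.302 and 0.927 FPKM against 2.05, 3.76 and 2.19, a smaller rise with a wide spread (1.10, SE 0.21).

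Outside this grouping, the 15 largest rises also held genes with other roles. Prph, the neuronal intermediate filament peripherin (chromosome 15, 99055174 to 99058978), was at 1.23, 1.07 and 0.696 FPKM in the controls and at 16.4, 17.4 and 13.6 with the cocktail (difference 3.07, SE 0.14). Dkk3, a secreted relative of the WNT inhibitors of the Dickkopf family, was at 2.23, 2.02 and 2.80 FPKM against 18.7, 20.9 and 13.6 (2.47, SE 0.16). Pik3ip1, a negative regulator of phosphoinositide 3-kinase, was at 1.47, 1.49 and 1.57 FPKM against 11.6, 8.65 and 9.30 (2.10, SE 0.12). Each of these 3 was several times higher in every cocktail library than in any control. Tmem132e, a transmembrane protein of sensory and neural cells, was at 1.92, 1.85 and 1.27 FPKM against 6.17, 11.2 and 14.0 (2.04, SE 0.25). Among the cocktail libraries it was lowest in a and highest in c, an order shared with several Hox genes described below.

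**Figure D1:**
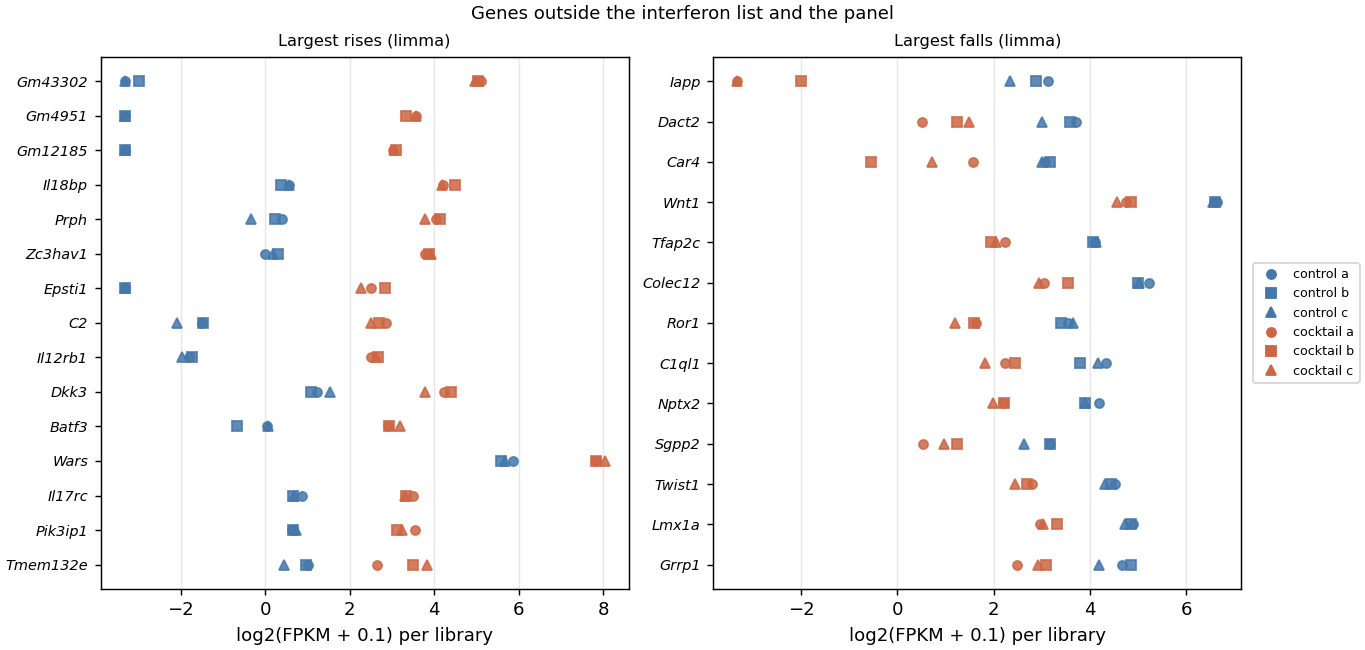
Each row is a gene and each point a library (blue, controls; orange, cocktail; circle, square and triangle, libraries a, b and c), on the scale log2(FPKM + 0.1). The 15 largest rises include 3 genes at 0 in all controls (points at the left edge), and among the 13 of the 15 largest falls shown Iapp is at 0 in 2 cocktail libraries.

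The largest fall was that of Iapp, the islet amyloid polypeptide, a peptide hormone of pancreatic beta cells (chromosome 6, 142298423 to 142303961). It was at 8.67, 7.28 and 4.99 FPKM in the controls, while cocktail libraries a and c were listed at 0 and b at 0.1501 (difference -2.90, SE 0.18). Dact2, an inhibitor in the WNT and TGF-beta pathways, was at 13.0, 11.96 and 7.95 FPKM against 1.33, 2.27 and 2.70 (difference -1.95, SE 0.21). In both genes control c was the lowest of the controls, and the groups did not overlap. Car4, a membrane-anchored carbonic anhydrase, was even among the controls at 8.27, 8.89 and 7.91 FPKM but spread with the cocktail at 2.86, 0.584 and 1.55 (-1.90, SE 0.27). Sgpp2, a phosphatase of sphingosine 1-phosphate, was at 8.92, 8.87 and 6.04 FPKM against 1.35, 2.26 and 1.85 (-1.66, SE 0.17).

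The next 5 falls described had limma differences of -1.62 to -1.81. Ror1, a receptor for the WNT5A ligand, was at 11.6, 10.4 and 12.5 FPKM against 2.98, 2.92 and 2.20 (difference -1.76, SE 0.12). Colec12, a scavenger receptor with a collagen-like stretch, was at 37.5, 31.8 and 32.1 FPKM against 8.10, 11.5 and 7.54 (-1.81, SE 0.14). Both fell by a similar amount, with every cocktail library below every control. C1ql1, a secreted synaptic organiser, was at 20.1, 13.8 and 18.0 FPKM against 4.62, 5.31 and 3.42 (-1.75, SE 0.17). Nptx2, a pentraxin of excitatory synapses, was at 18.1, 14.8 and 14.8 FPKM against 4.44, 4.57 and 3.84 (-1.68, SE 0.11). Grrp1, a glycine and arginine-rich protein, was at 25.2, 28.9 and 18.0 FPKM against 5.45, 8.40 and 7.42 (-1.62, SE 0.19). Wnt1, Lmx1a, Tfap2c and Twist1, described further on, were also among the 15 largest falls.

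For each gene, the log2 fold change in the authors' deposited table was set against the log2 ratio of its mean FPKM. Over the 277 genes with a mean of at least 1 FPKM in both groups, the deposited value was higher by a median of 0.032, and for 254 of them the gap lay within 0.1 of that median. For 1 gene it lay more than 0.5 away. This was Hnrnpa3, an RNA-binding protein of messenger RNA processing and transport, chosen for description after its values were seen. It was at 43.3, 39.7 and 44.0 FPKM in the controls against 27.6, 10.7 and 11.7, with cocktail library a well above b and c. Its mean FPKM gave a log2 ratio of -1.34, while its log2 fold change in the authors' deposited table was -2.86. From which measure the authors computed that fold change is not stated in these sources. The count columns, which were left out here, were not set against it, so the gap was not examined further. The next largest gaps were those of Foxp1, a forkhead factor, at 0.31, and Spaca6, a sperm membrane protein, at -0.29.

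**Figure D2:**
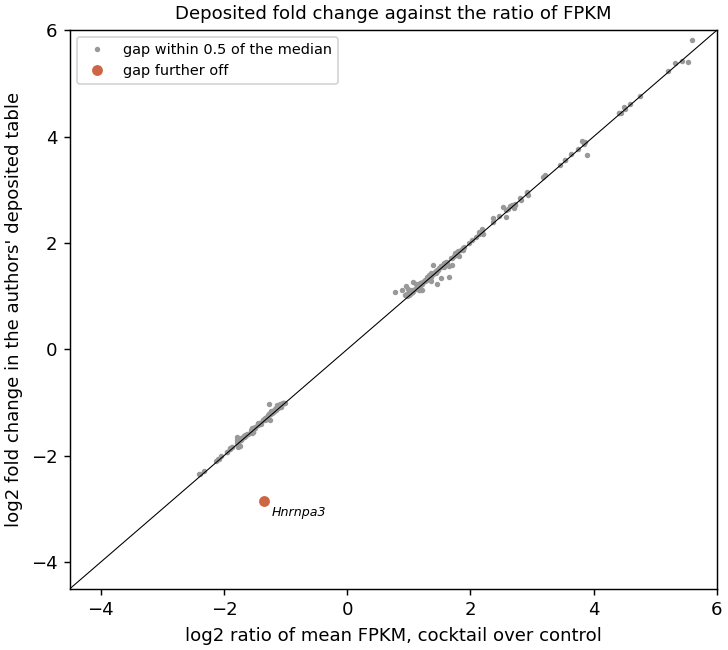
Each point is 1 of 277 genes with a mean of at least 1 FPKM in both groups, with the log2 ratio of mean FPKM (cocktail over control) on the horizontal axis and the log2 fold change of the authors' deposited table on the vertical axis. The points lie near the line of equality except Hnrnpa3, at -1.34 against -2.86.

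The most abundant genes outside the interferon list moved in both directions. Ckb, the brain-type creatine kinase, had the highest mean level and one of the smallest changes, with 185, 180.4 and 171 FPKM in the controls and 353, 347 and 353 with the cocktail (difference 0.97, SE 0.06). Wars, the tryptophan tRNA ligase, known to be induced by interferon gamma, was at 58.0, 47.4 and 51.4 FPKM against 226, 227 and 262 (2.17, SE 0.09). Jam3, a junctional adhesion molecule, was at 66.3, 66.0 and 61.8 FPKM against 182, 186 and 190.1 (1.51, SE 0.06). These 3 genes were even within each group, with a gap between groups far wider than the spread. Lap3, a leucine aminopeptidase, was at 40.2, 41.9 and 39.6 FPKM against 107, 105 and 107 (1.37, SE 0.06). Tcf7, a TCF/LEF transcription factor at the end of the WNT pathway, was at 42.5, 42.0 and 41.5 FPKM against 91.7, 104 and 120.3 (1.30, SE 0.10).

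On the lower side, Gpx3, a secreted glutathione peroxidase, was at 123, 129 and 116 FPKM against 61.0, 60.0 and 47.9 (-1.12, SE 0.10). Cx3cl1, a membrane-bound chemokine, was at 65.1, 54.1 and 61.7 FPKM against 28.5, 29.9 and 20.003 (-1.19, SE 0.14). Cocktail library c was the lowest of the 6 in both genes. Tfap2c, an AP-2 factor of surface ectoderm and neural crest, was steady at 17.1, 16.6 and 17.4 FPKM against 4.60, 3.73 and 4.05 (-1.82, SE 0.09).

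At the edge of the authors' fold limit, the genes with the smallest rises were Mab21l3, Kcnh4, Ckb, Chst1 and Jade2, at 1.002 to 1.021 on the log2 scale of the authors' deposited table. Of these, median scaling ended the call of all but Ckb, with limma adjusted p of 0.21 for Chst1 to 0.42 for Kcnh4. The genes with the smallest falls were Prdm16, Hacd4, Cobl, Ppp1r14c and Cdh13, at -1.002 to -1.011 in the same table. Genes just outside the limit were not analysed here. The edge of the list was not made only of low genes. In the libraries named a, Ckb was at 185 FPKM against 353, and Kcnh4, a potassium channel, was at 0.780 FPKM against 1.09.

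All 4 genes of the roof plate and dorsal neural tube list (20 genes) that are in the table were lower, as were 42.7% of all 633 genes. Wnt1, a ligand of the dorsal midline and the midbrain-hindbrain boundary, was at 99.7, 95.7 and 93.2 FPKM in the controls and at 26.7, 28.6 and 23.6 with the cocktail (difference -1.83, SE 0.08). Gdf7, a BMP-family ligand secreted by the roof plate, was at 70.7, 59.8 and 67.0 FPKM against 26.1, 31.4 and 22.8 (-1.28, SE 0.12). Lmx1a was at 29.6, 28.7 and 26.3 FPKM against 7.69, 9.82 and 7.996 (-1.62, SE 0.10). Lmx1b was lower in level, at 5.28, 4.90 and 4.31 FPKM against 2.22, 1.82 and 1.39 (-1.06, SE 0.14). The sum of the 4 lay between 189 and 205 FPKM in the controls and between 55.8 and 71.7 with the cocktail. On chromosome 15, Wnt1 stood in a run of 3 neighbouring genes in the table that were all lower, with the WNT ligand gene Wnt10b and the dendrite protein gene Ddn.

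The table held 4 WNT ligand genes, of which 3 were lower and 1 higher, with a median difference of -0.66. Wnt10b was at 4.52, 3.14 and 3.09 FPKM against 1.41, 1.62 and 1.41 (difference -0.87, SE 0.14), and Wnt2b was at 0.802, 0.924 and 0.517 against 0.137, 0.373 and 0.322 (-0.45, SE 0.11). Wnt8b, a ligand of the developing forebrain and hindbrain, was higher at 0.407, 0.524 and 0.516 FPKM against 0.906, 1.04 and 0.939 (0.40, SE 0.08). With median scaling this rise lost its call (0.096, limma adjusted p 0.26). Of 5 receptors, effectors and modulators of the pathway, Dkk3 and Tcf7 were higher, and Dact2, Ror1 and Rspo4, an R-spondin that strengthens WNT signals, were lower.

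Of 15 BMP and TGF-beta pathway genes in the table, 13 were lower and 2 higher, with a median difference of -1.04. Over all 633 genes 42.7% were lower, and the median difference was 0.57. The ligand Bmp7 was at 41.3, 39.6 and 35.8 FPKM in the controls and at 12.2, 15.9 and 15.1 with the cocktail (difference -1.38, SE 0.11). Several extracellular inhibitors of BMP signalling fell as well: noggin (Nog) from 18.5, 17.1 and 14.4 FPKM to 6.01, 5.24 and 6.30 (-1.36, SE 0.11), and gremlin (Grem1) from 5.53, 4.75 and 3.03 to 0.603, 0.982 and 0.812 (-1.57, SE 0.18). Sost, which encodes the WNT and BMP inhibitor sclerostin, fell from 24.8, 22.5 and 23.9 FPKM to 7.26, 8.05 and 6.16 (-1.605, SE 0.10). Further down the pathway, the signal transducer Smad9 was at 1.09, 1.72 and 1.45 FPKM against 0.391, 0.217 and 0.477 (-0.83, SE 0.12), and Bmper, a secreted BMP modulator, was at 2.41, 2.20 and 1.70 against 0.339, 0.4997 and 0.670 (-1.04, SE 0.13). The other lower members were the ligands Bmp5, Gdf6 and Gdf10, the inhibitor Chrdl1, the co-receptor Tgfbr3 and Tgfb1i1, with differences of -0.58 for Bmp5 to -1.22 for Chrdl1. The 2 higher members were follistatin (Fst), an activin inhibitor, at 1.65, 1.44 and 1.88 FPKM against 4.19, 3.92 and 3.01 (0.82, SE 0.13), and the ligand Tgfb1, below 1.3 FPKM in every library (0.48, SE 0.14). Both lost their call with median scaling, at 0.28 for Fst (limma adjusted p 0.062) and 0.22 for Tgfb1 (adjusted p 0.099).

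Of 19 homeobox and other developmental transcription factors in the table, 11 were higher and 8 lower, with a median difference of 0.52. Irx3, an Iroquois factor of intermediate neural tube, was at 18.6, 13.7 and 16.5 FPKM in the controls and at 45.8, 42.1 and 48.9 with the cocktail (difference 1.44, SE 0.11). Its neighbour on chromosome 8, Irx5, was at 8.37, 7.73 and 8.34 FPKM against 21.9, 20.6 and 28.1 (1.41, SE 0.12). Irx6, the third gene of that cluster, was low but rose too, from 0.128, 0.0516 and 0.0159 FPKM to 0.400, 0.554 and 0.648 (0.52, SE 0.07). All 3 linked Iroquois genes were thus higher in every cocktail library. Over all 633 genes, the groups did not overlap for 99.8%. Sox21, a SOXB factor of neural progenitors, was at 4.77, 2.95 and 3.46 FPKM against 16.1, 12.3 and 17.1 (1.78, SE 0.16). The proneural factor Neurog1 was at 20.7, 23.0 and 22.7 FPKM against 42.6, 47.0 and 46.6 (1.006, SE 0.08).

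The lower factors included Twist1, a factor of mesenchyme and cranial neural crest, at 22.8, 21.4 and 19.9 FPKM against 6.85, 6.32 and 5.32 (difference -1.65, SE 0.10). Lhx2, a factor of forebrain and eye field, was at 9.59, 8.94 and 6.48 FPKM against 3.53, 3.82 and 3.06 (-1.05, SE 0.14). Dlx2, a distal-less factor of forebrain and branchial arches, was at 1.54, 2.62 and 2.60 FPKM against 0.680, 0.662 and 0.619 (-0.96, SE 0.15). Dlx3, Gata2, Tfap2c, Lmx1a and Lmx1b complete the lower members. None of the 8 overlapped between groups, and neither did 632 of all 633 genes (99.8%).

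Another 4 factors of dorsal neural progenitors and interneurons were chosen for description after their values were seen. Ptf1a, which specifies inhibitory neurons, was at 0.0579, 0.0882 and 0.111 FPKM in the controls and at 2.59, 1.30 and 2.47 with the cocktail (difference 1.496, SE 0.16). Prdm13, which acts with Ptf1a in the dorsal neural tube, was at 4.56, 3.55 and 3.93 FPKM against 14.2, 11.7 and 18.2 (1.63, SE 0.15). Gsx2 was at 0.945, 0.586 and 0.178 FPKM against 3.54, 2.12 and 3.41 (1.37, SE 0.21), and Lbx1, a homeobox factor of dorsal interneurons, was at 0.354, 0.0333 and 0.249 against 1.58, 1.04 and 1.87 (1.04, SE 0.15). In all 4, cocktail library b was the lowest of the cocktail libraries and still above every control. Library b was also the lowest cocktail library for Sox21 and Irx3, while library a was the lowest for Neurog1 and Irx6. Of the 199 genes with a mean of at least 5 FPKM with the cocktail, 26.1% had library b as the lowest. Ptf1a, Gsx2 and Lbx1 lay below that level and are not among the 199.

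**Figure D3:**
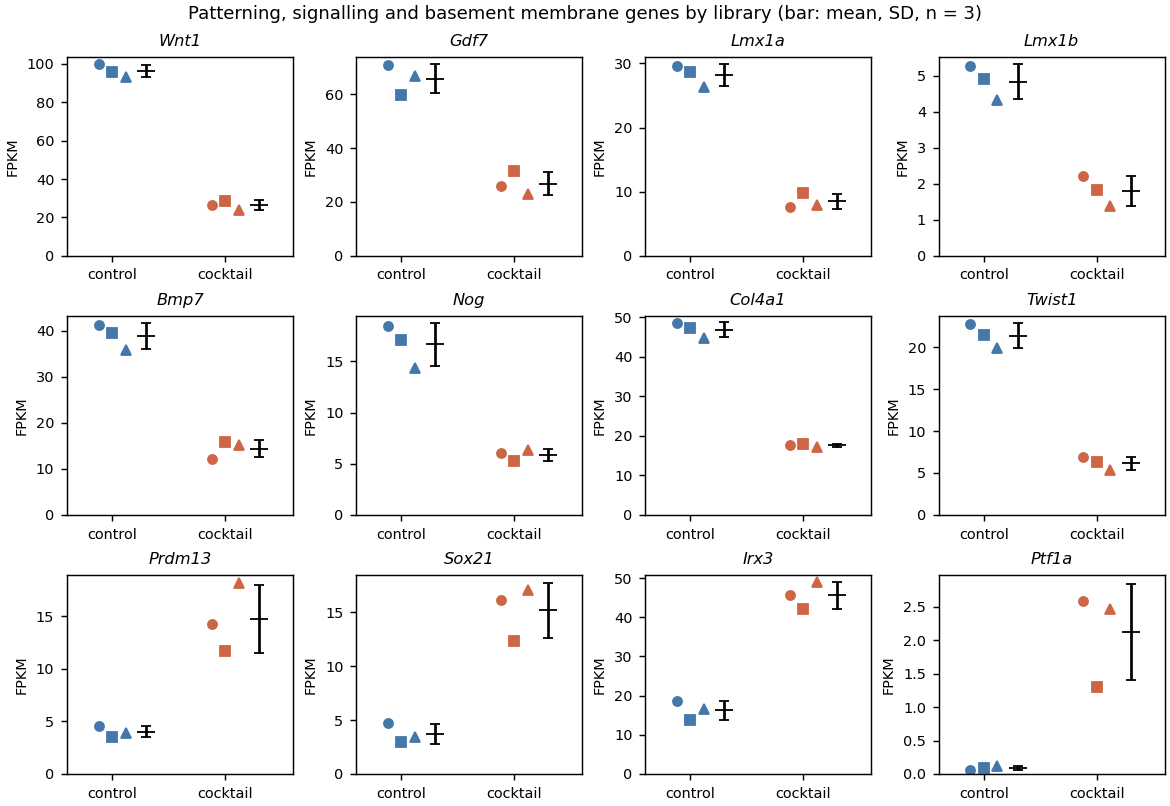
FPKM of 12 genes by library (circle, square and triangle are libraries a, b and c; black bars give mean and SD, n = 3). The roof plate, BMP and basement membrane genes and Twist1 in the first 8 panels are lower in every cocktail library, and Prdm13, Sox21, Irx3 and Ptf1a are higher, with cocktail library b lowest among the cocktail libraries in these 4.

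The table held 7 Hox genes, all higher with the cocktail, as were 57.3% of all 633 genes. Of the 7, 5 (Hoxb5 to Hoxb9) lie side by side on chromosome 11 between 96271457 and 96306121. Hoxb7 was at 0.950, 1.32 and 1.09 FPKM in the controls and at 2.51, 3.79 and 4.59 with the cocktail (difference 1.10, SE 0.17). Hoxb8 was at 3.07, 6.11 and 3.56 FPKM against 8.66, 13.8 and 23.2 (1.57, SE 0.32), and Hoxb9, the most posterior in the table, was at 0.626, 0.627 and 0.382 against 1.25, 1.23 and 1.45 (0.58, SE 0.10). On chromosome 15, Hoxc6 was at 0.379, 0.876 and 0.825 FPKM against 2.17, 3.07 and 2.82 (1.13, SE 0.16). The annotated span of Hoxc5 contains Hoxc6, so reads of the 2 cannot be fully told apart. Cdx2, a caudal factor on the same list that acts upstream of Hox genes, was lower, at 1.29, 0.715 and 1.16 FPKM against 0.359, 0.353 and 0.246 (-0.63, SE 0.12). With median scaling all 7 Hox genes stayed higher, but Hoxb5 fell short of a call (0.52, limma adjusted p 0.13) and so did Hoxb9 (0.24, adjusted p 0.058).

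Most of the Hox genes also shared an order among the 3 cocktail libraries. Hoxb5 was at 21.2, 36.8 and 50.9 FPKM in cocktail libraries a, b and c, Hoxb6 at 5.32, 12.6 and 15.7, and Hoxc5 at 30.9, 46.6 and 57.7. Library a was the lowest for 6 of the 7 Hox genes and library c the highest for 6. For 5 of the 7 the order was a, b, c from low to high. That order occurred in 13.6% of 199 genes with a mean of at least 5 FPKM with the cocktail, where the median coefficient of variation was 7.48%. Hoxb8 at 48.4%, Hoxb6 at 47.6% and Hoxb5 at 40.8% were among the most variable of these genes, with Hnrnpa3 at 56.8%, Cnpy1 at 53.3%, the collagen Col14a1 at 44.8% and Tmem132e at 38.1%. The Hox genes share a cluster or a neighbourhood, and they are not independent of each other. Hoxb7, Hoxc6 and Hoxb9, with cocktail means of 3.63, 2.69 and 1.31 FPKM, are not among the 199 genes. No share over the 199 is given for library a as the lowest or library c as the highest, so nothing is read from those counts. In the controls, the median coefficient of variation was 7.95% over 138 genes.

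En2 and Cnpy1, 2 neighbouring genes of the midbrain-hindbrain region, had another order across the same libraries, lowest in b and highest in a. En2, an engrailed homeobox factor, was at 14.6, 11.3 and 11.8 FPKM in cocktail libraries a, b and c and at 3.59, 3.30 and 6.94 in the controls (difference 1.32, SE 0.22). Cnpy1, a regulator of FGF signalling known from zebrafish, was at 2.11, 2.45 and 4.14 FPKM against 14.6, 5.53 and 7.13 (1.30, SE 0.31). With median scaling the rise of Cnpy1 lost its call (0.69, limma adjusted p 0.060). Both genes were highest in cocktail library a, where most Hox genes were lowest, and both were higher in c than in b, as most Hox genes were. In the controls both were highest in library c. The groups did not overlap for any of these 9 genes, nor for 632 of all 633 genes (99.8%). For 4 of the 9, however, the cocktail libraries spanned more than the difference of the group means. Hoxb5 differed by 22.0 FPKM between means against a span of 29.6 FPKM, Hoxb8 by 10.97 against 14.5, Hoxb6 by 9.18 against 10.4 and Cnpy1 by 6.195 against 9.08.

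**Figure D4:**
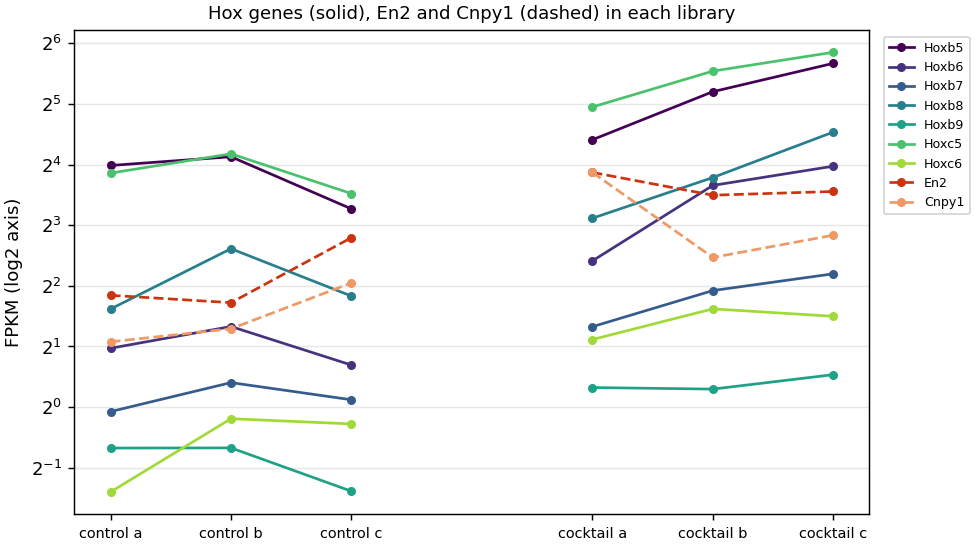
FPKM (log2 axis) of 7 Hox genes (solid), En2 and Cnpy1 (dashed) in each library. Lines join the values of a gene within a group and stand for no order of the libraries. Most Hox genes are lowest in cocktail library a, where En2 and Cnpy1 are highest.

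All 5 genes of the basement membrane and matrix receptor list that are in the table were lower, with a median difference of -1.05. The share lower over all 633 genes was 42.7%. Ntn4, a netrin found in basement membranes but kept on the axon guidance list, was higher at 3.21, 3.34 and 4.31 FPKM against 7.01, 7.45 and 6.98 (difference 0.82, SE 0.11; with median scaling 0.19, limma adjusted p 0.13). The collagen IV chain Col4a1 was at 48.4, 47.3 and 44.8 FPKM against 17.8, 17.9 and 17.2 (difference -1.36, SE 0.07), and its partner chain Col4a2, from the adjoining gene on chromosome 8, was at 36.1, 35.6 and 35.4 against 15.4, 16.7 and 15.05 (-1.14, SE 0.07). The integrin Itgb5 was at 24.6, 22.4 and 20.5 FPKM against 9.98, 10.6 and 10.3 (-1.05, SE 0.09). The laminin chain Lamb3 and the collagen receptor Itga1 were below 0.4 FPKM in every library. Of 12 genes of interstitial matrix and its enzymes, 5 were higher and 7 lower, with a median of -0.30. Col14a1, a collagen that associates with fibrils, was at 1.10, 1.16 and 1.13 FPKM against 3.24, 5.71 and 8.43 (1.599, SE 0.25), and Thbs2, a thrombospondin, was at 2.75, 3.57 and 3.21 against 9.20, 10.6 and 6.60 (1.21, SE 0.16). The protease pair of the plasminogen system split: Plat was at 16.6, 15.2 and 13.2 FPKM against 31.3, 35.7 and 34.6 (1.12, SE 0.10), and Plau was at 5.13, 5.45 and 4.49 against 1.92, 2.95 and 1.77 (-0.92, SE 0.15).

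Of 17 axon guidance and adhesion genes, 8 were higher and 9 lower, with a median difference of -0.44. Nrp2, a receptor for semaphorins and VEGF, fell from 16.8, 15.9 and 15.9 FPKM to 5.36, 6.11 and 5.08 (difference -1.40, SE 0.09). The repellent ligand Slit3 fell from 19.8, 15.3 and 19.8 FPKM to 6.31, 6.61 and 4.29 (-1.53, SE 0.16), and the Eph receptors Epha1 and Ephb1 had differences of -1.14 and -1.17. The guidance ligand netrin 1 (Ntn1) was at 1.02, 1.12 and 1.63 FPKM against 3.29, 2.08 and 4.199 (0.87, SE 0.20; with median scaling 0.38, limma adjusted p 0.097), and the semaphorin Sema5b was at 14.0, 13.9 and 13.5 against 26.0, 26.6 and 29.7 (0.94, SE 0.08). The synaptic adhesion gene Lrrtm2, nearly absent in the controls at 0.0122, 0 and 0.00749 FPKM, was at 0.197, 0.173 and 0.233 with the cocktail. Both netrins in the table were higher, though neither kept its call with median scaling, the 3 Eph and ephrin genes (Epha1, Ephb1 and Efna1) were lower, and the semaphorins split, with Sema5b higher and Sema3c lower.

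Of 5 growth factor and receptor tyrosine kinase genes, 4 were lower and 1 higher, with a median difference of -0.69. The share lower over all 633 genes was 42.7%. Kitl, the ligand of the receptor KIT, was at 10.2, 10.7 and 10.2 FPKM against 3.24, 3.15 and 3.08 (difference -1.45, SE 0.08), with both groups very even. The growth factor Igf2 was at 6.81, 5.75 and 6.38 FPKM against 2.81, 2.45 and 1.71 (-1.15, SE 0.14). Igf2 and Grb10, an imprinted adaptor that restrains insulin receptor signalling, are on the list of imprinted genes with Cobl, an actin nucleator, and all 3 were lower. Grb10 was at 4.43, 3.72 and 4.62 FPKM against 0.825, 0.629 and 0.816 (-1.58, SE 0.12). Off that list, the imprinted genes Dio3 and Rtl1 of the same region rose, and other imprinted genes off it were not gathered. Dio3, a deiodinase that inactivates thyroid hormone, was at 0.0446, 0.0540 and 0 FPKM against 1.497, 2.35 and 0.835 (1.27, SE 0.19). Rtl1, a retrotransposon-derived gene, stayed below 0.4 FPKM (0.25, SE 0.047). Among other receptors, Kdr, the VEGF receptor of endothelium, was at 4.71, 5.76 and 4.44 FPKM against 1.49, 1.75 and 1.42 (-1.22, SE 0.12).

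The list named for the cell cycle and p53 response held 4 genes, 3 higher and 1 lower (median 0.91), but not all act in either. Ccn1 encodes a secreted matrix-associated protein and Cdk5r2 an activator of the neuronal kinase CDK5, and both were higher (differences 0.89 and 0.92), with no call kept under median scaling (limma adjusted p 0.075 and 0.052). Cdk6, a kinase of G1 phase, was at 1.29, 1.16 and 1.29 FPKM against 5.82, 5.25 and 5.41 (difference 1.53, SE 0.10). The growth regulator Myc fell from 10.99, 10.3 and 10.7 FPKM to 4.199, 4.11 and 2.68 (-1.34, SE 0.14). Egr2, a factor of hindbrain rhombomeres 3 and 5 and an immediate early gene, was at 0.927, 0.620 and 0.800 FPKM against 0.0913, 0.172 and 0.104 (-0.66, SE 0.08). Immediate early genes as a list were split, with 2 higher and 2 lower.

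Other lists were mixed, to be read beside the 57.3% higher and 42.7% lower of all 633 genes. Solute carriers divided evenly, 6 higher and 6 lower (median -0.0023), and ion channels and pumps were 5 higher and 6 lower (median -0.17). The cation-chloride cotransporter Slc12a7 was at 23.0, 23.9 and 22.8 FPKM against 53.5, 57.5 and 55.9 (difference 1.23, SE 0.06). Of 7 genes of transmitter receptors and synapse, 5 were higher, among them the complexin gene Cplx1 at 0.748, 0.746 and 0.959 FPKM against 2.20, 2.78 and 2.97 (1.002, SE 0.12). The serotonin receptor Htr1b was lower, at 2.15, 1.51 and 2.10 FPKM against 0.633, 0.425 and 0.463 (-0.95, SE 0.12). The list of peptide hormones held 3 genes, all lower: Iapp, Adm, which encodes the vasodilator adrenomedullin, and Edn3, which encodes endothelin 3. Off that list, the neuropeptide precursor Vgf was higher at 2.09, 0.739 and 1.03 FPKM against 2.42, 3.98 and 2.12 (0.76, SE 0.24; with median scaling 0.28, limma adjusted p 0.28), and so was Pcsk1n, the precursor of a prohormone convertase inhibitor (0.97, SE 0.14). Small GTPase regulators were 1 higher and 5 lower (median -0.84), and cytoskeletal and contractile genes 3 higher and 7 lower (median -0.79).

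Complement and coagulation genes were 5 higher and 1 lower (median 1.66), and genes of the NF-kappa-B and TNF pathway were 5 higher and 1 lower (median 1.16). The share higher over all 633 genes was 57.3%. Of the complement and coagulation genes, 1 (Serping1) is also on the interferon list. C1ra, a protease of the classical complement pathway, was at 0.0584, 0.0704 and 0 FPKM against 0.751, 0.757 and 1.12, while the membrane complement inhibitor Cd55 was lower, at 2.20, 1.71 and 2.25 against 0.441, 0.893 and 0.399 (difference -0.96, SE 0.14). The TNF receptor Tnfrsf1b was at 0.710, 0.794 and 0.923 FPKM against 4.04, 4.55 and 4.99 (1.61, SE 0.12). Tnfaip3, a ubiquitin-editing inhibitor of NF-kappa-B, was the lower member, at 2.43, 2.75 and 2.68 FPKM against 1.13, 1.48 and 1.13 (-0.69, SE 0.11). The cytokine Csf1, which supports macrophages, was at 4.07, 3.69 and 4.04 FPKM against 17.3, 19.1 and 17.8 (1.95, SE 0.08).

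Proteolysis and ubiquitin genes were 11 higher and 2 lower (median 2.18), but 9 of the 13 are also on the interferon list. The lower ones were Fbxo40, a muscle F-box protein, at 2.49, 2.35 and 1.89 FPKM against 0.114, 0.132 and 0.260 (difference -1.47, SE 0.11), and Ube2ql1, a ubiquitin-conjugating enzyme, at 28.1, 25.3 and 24.9 against 10.2, 13.4 and 9.28 (-1.19, SE 0.13). The list named for tryptophan, nucleotide and small molecule metabolism was 5 higher and 6 lower (median -0.38), with the plasminogen activators Plat and Plau counted on it. In tryptophan metabolism Wars was higher, while kynureninase (Kynu), an enzyme of tryptophan breakdown, was lower at 2.33, 2.46 and 1.498 FPKM against 0.124, 0.146 and 0.236 (-1.39, SE 0.13). No gene of the glycolysis and hypoxia list was in the table.

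The labelled tissue cannot be checked in full from a table of chosen genes. Of 22 markers of surface and oral epithelium the table held 2, the keratin Krt20 (higher) and Tfap2c (lower). Of 16 salivary gland markers it held 1, the muscarinic receptor Chrm3 (higher), at 0.269, 0.153 and 0.350 FPKM against 0.437, 1.012 and 0.778 (0.46; with median scaling 0.23, limma adjusted p 0.082). None of 15 immune cell markers, 10 erythroid markers, 14 pluripotency markers and 13 endoderm markers was in the table. The 2 endothelial markers in the table, Kdr and the tight junction gene Cldn5, summed to 6.23 to 6.81 FPKM in the controls and 1.49 to 2.33 with the cocktail. Their part in the other falls was not tested.

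By position, members in the table lay next to each other in 15 runs of at least 3 genes less than 100000 bases apart. Of these runs, 3 held no gene of the interferon list: the 5 Hoxb genes, all higher; Wnt10b, Wnt1 and Ddn, all lower; and Gm14597, Rtl8c and Rtl8b on chromosome X, all lower. Rtl8c and Rtl8b derive from a retrotransposon and are close copies, so reads may have been shared between them. The longest run was the GTPase cluster on chromosome 11 (48826140 to 49135387), with 10 genes, all higher, of which 6 are on the interferon list. By annotation, 587 of the 594 named genes are protein coding and 7 are polymorphic pseudogenes, all 7 higher. All 7 are on the interferon list, where 118 of 119 genes were higher.

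The 39 new transcripts carry no gene name. Of them, 24 were higher and 15 lower, and 3 were listed at 0 in every control. The files annotate 10 of the 39, 2 of them with the domain of interferon-inducible GTPases. The highest mean was 20.1 FPKM, and together the new transcripts summed to 53.8 to 54.5 FPKM in the controls and to 105.7 to 119 FPKM with the cocktail.

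The other experiment of the study compared aggregates grown together with mSMGs (the labels leave this abbreviation unexplained) between days 5 and 7 and 3 separate control libraries, and the authors deposited values for 546 genes chosen as changed there. The unit of that table is not given in its header, and FPKM is inferred from its values. The 2 experiments share no library. Of the 633 cocktail genes, 66 were also in the co-culture table, which is 10.4% of the cocktail list and 12.1% of the co-culture list. For 40 of the 66, the difference of log2(group mean + 1) had the same sign as in the cocktail experiment: 30 were higher in both and 10 lower in both. Since 37 of the 66 were higher with the cocktail and 49 in co-culture, many same-sign pairs follow from those totals alone, and nothing is read from the 40. Another 19 were lower with the cocktail and higher in co-culture, and 7 were higher with the cocktail and lower in co-culture. The co-culture libraries varied widely, and the groups did not overlap for 16 of the 66 (24.2%), a smaller share than the 34.8% of all 546 genes in that table. Only 3 of the 66 were on the interferon list.

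The values of some of these 16 genes are given as a description. Csf1 was at 1.74, 1.08 and 2.08 in the co-culture controls and at 5.82, 14.5 and 2.33 after co-culture. The chemokine Cxcl12 was at 1.495, 2.503 and 2.11 in those controls and at 6.96, 8.20 and 4.35 after co-culture, and in the cocktail experiment it also rose (difference 0.81). Both were higher in every library of either treatment. Rtl8c was lower in both, at 32.7, 22.8 and 17.8 in the co-culture controls and 12.5, 7.42 and 11.7 after co-culture. Bmp5 and Epha1 were lower in both as well. Wnt8b went opposite ways: it was at 2.68, 2.85 and 2.58 in the co-culture controls and at 0.999, 0.123 and 1.84 after co-culture, but was higher with the cocktail, a rise that lost its call with median scaling. Il18 and the ectodysplasin gene Eda, a ligand of skin appendage and gland development, were also lower after co-culture and higher with the cocktail. Ccno, a cyclin-like gene of multiciliated cells, was higher after co-culture and lower with the cocktail.

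**Figure D5:**
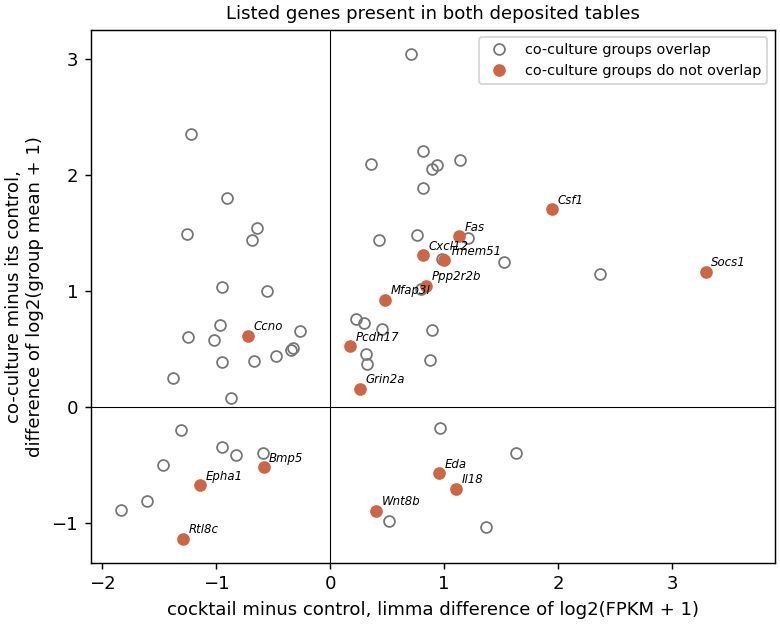
Each point is 1 of 66 genes present in both tables, with the cocktail experiment's difference of mean log2(FPKM + 1) on the horizontal axis and the co-culture difference of log2(group mean + 1) on the vertical axis. Filled points are the 16 genes whose co-culture groups do not overlap; Csf1 and Cxcl12 lie in the upper right, and Wnt8b, Eda and Il18 in the lower right.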

How the data were processed

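Poly(A) RNA was sequenced from 6 libraries. The submitters' processing notes name HISAT2 and GRCm38; how reads were counted, with which annotation and by which tool the groups were compared is not stated. The authors deposited, per the file headers, an FPKM value per gene and library, with a log2 fold change and an FDR (adjusted p-value). Another 12 columns (6 of counts and 6 named by numbers) were not used for the values given here. No column names 1 sample, and each group was given 1 measure only. For the counts this was a choice of procedure and not a limit of the data. Depth was therefore not worked out. Columns were assigned to groups by name. Symbols came from GENCODE M21 by identifier.

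A count test was planned. It was fitted in an earlier draft and given up after both measures had been seen, and its results are not reported here. With FPKM, limma 3.58.1 (R 4.3.3, intensity trend) was used in its place on log2(FPKM + 1), without further scaling or filter, with Benjamini-Hochberg adjustment over 633 genes. On simulated data with 633 genes, the fit picked up 89.9% of 2-fold changes and 100% of 4-fold changes, and wrongly picked 2.31% of unchanged genes. The simulated spread was assumed, not estimated from these libraries, and unchanged genes were included. These rates therefore say nothing about the calls among the rows chosen by the authors. Alternatives were a pseudocount of 0.1, a fold limit of 2, a mean of at least 1 FPKM, median scaling and leaving out each library. Co-culture groups were compared as log2(group mean + 1).

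Members and the 29 gene lists were chosen with earlier results of these data known. Named genes were, outside the interferon list and the panel, the 15 largest rises and falls among 166 genes with at least 5 FPKM in the higher group and no overlap, the 10 most abundant, the 5 nearest the fold limit on each side, and members of the lists. Promoters came from the RefSeq table (GRCm38.p6). Some of these genes are not reported here.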

Additional observations from a re-analysis of the deposited data

How the results depend on the processing

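The counts of genes called changed, higher and lower (633, 363 and 270) were the same with a pseudocount of 0.1. Leaving out each library in turn gave 631 to 633 changed genes, 361 to 363 higher and 270 lower. With a limma test against a fold limit of 2, 191 genes were called, 146 higher and 45 lower, on a scale that shrinks low genes. A mean of at least 1 FPKM in the higher group, added after seeing the data, left 530 genes, all called, 314 higher and 216 lower. Median scaling over the listed genes, also added after seeing the data, called 563 genes, and by its construction it makes every rise smaller. No gene changed direction under any of these. The number of genes with the same direction in co-culture was 40, and 40 to 44 without a co-culture library or with a pseudocount of 0.1. Alternatives that need counts are not given here: column sums, TMM and DESeq2 size factors, the DESeq2 test and filters on low counts. The values reported here do not use the count columns. No paired analysis was possible because the labels number the cocktail libraries and their controls differently and the columns of the table match no title. Since the count columns were left out, the reads behind values below 1 FPKM are not given here.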
